A study of Mus musculus and Homo sapiens with 4 samples.

Results

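Spliceosomal small nuclear RNAs (snRNAs) are short RNAs of the splicing machinery that act with proteins in the nucleus and are not translated. Ribosome profiling sequences the pieces of RNA that survive nuclease digestion, which are read as ribosome footprints where they lie on messages, and such libraries also hold pieces of noncoding RNAs. The snRNAs described here are 6 human transcripts chosen by identifier: RNU1-1 (ENST00000383925.1), RNU4-1 (ENST00000363925.1), RNU4-2 (ENST00000365668.1), RNU5A-1 (ENST00000362698.1), RNU5B-1 (ENST00000363286.1) and RNU6-1 (ENST00000383898.1). All 6 are among the 194871 transcripts listed for the HEK libraries, and 5 of them had reads. The list was set by identifier and not by the measured values of its members, but it was made with earlier results of these data known. The names come with the list of identifiers; neither the deposited files nor the name tables used here pair the identifiers with gene names.

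The libraries were made from HEK, an established line derived from human embryonic kidney, kept in DMEM with 10% FBS (fetal bovine serum). Both lysates were digested with RNase I, which leaves the stretches of RNA that ribosomes or other bound proteins shield, and both were passed over a size exclusion column. The input library was made from that material, and the bound library from assembled ribosomes pulled down on streptavidin by means of a tagged large subunit. The comparison addresses which fragments travel with the tagged subunit. Each group had 1 library, the labels do not say whether both came from the same culture or lysate, and they name neither the tagged protein nor a clone. No test of the conditions exists for such a design, so no p-value is given, and the 95% intervals cover counting error between these libraries only. Library totals were 17446956 (input) and 30208713 (bound) counts. Below, "before capture" means the input library and "after it" the bound library. A decrease means a lower value in the bound library, whether or not both came from 1 lysate. Because the transcript identifiers could not be paired with gene names, markers of the HEK line were not checked.

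In splicing, the U1 RNA pairs with the 5′ splice site at the start of an intron. U4 RNA pairs with U6 RNA and holds it inactive until the spliceosome is activated, U6 then forms part of the catalytic core, and U5 RNA contacts the exon ends; U4, U5 and U6 join the spliceosome as a tri-snRNP, a complex of RNA and protein. Several of these RNAs are made from more than 1 gene copy with the same or nearly the same sequence. Reads from such copies cannot always be told apart, and the sources used here do not give the rule for counting reads with several matches.

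All 5 snRNAs with reads were lower in the bound library than the median coding region, by 3.39-fold for RNU1-1 and by 9.27-fold to 16.6-fold for the U4 and U5 RNAs. A ratio of 1 was assigned to the median coding region among those with at least 100 reads summed over both libraries, which corresponds to 1.99 bound reads for each input read. At this scale the 6 members together had 33831 input and 7755 bound reads, a summed level 8.67-fold lower in the bound library (95% exact counting interval 8.46 to 8.89). The median over the 5 RNAs with reads was a log2 ratio of -3.30, against 0.0043 over all transcripts without a coding region and 0.0015 over all features with at least 100 reads. Each of the 5 was at least 2-fold lower, whereas 1.65% of all 48823 features, 0.857% of 26492 coding regions and 2.58% of 22331 transcripts without a coding region were. Transcripts without a coding region held 44.3% of all input counts and 37.7% of all bound counts. The 22331 compared here formed 14893 different pairs of counts. Whether they share reads with coding transcripts was not tested, so their shares are not those of noncoding RNAs in general.

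**Figure D1:**
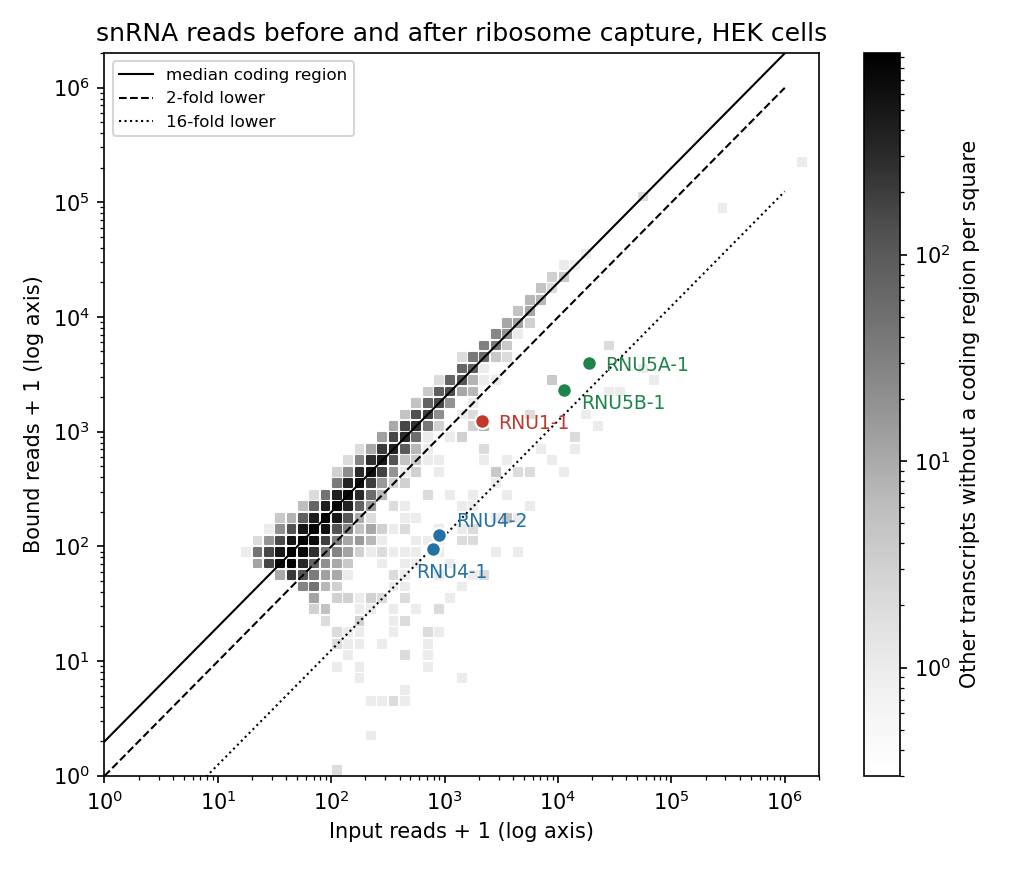
Input reads plus 1 (x axis) against bound reads plus 1 (y axis), both on log axes, for the 5 snRNAs with reads (coloured points) and, as grey squares shaded by number, the other transcripts without a coding region that had at least 100 reads; lines mark the median coding region and levels 2-fold and 16-fold lower. All 5 snRNAs lie under the 2-fold line, RNU1-1 nearest to it and the U4 RNAs near the 16-fold line.

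RNU1-1, a gene for the U1 RNA, had 2117 input reads and 1242 bound reads. It was 3.39-fold lower in the bound library (95% exact counting interval 3.16 to 3.64), the smallest decrease of the 5 RNAs. As a share of all counts of the library it stood at 121 reads per 1000000 counts (RPM) before capture (interval 116 to 127) and 41.1 RPM after it (38.9 to 43.5). The same pair of counts is listed for 6 other transcripts, none of them with a counted coding region. A further search, made after these values were seen, found 12 transcripts without a coding region, these 6 included, whose counts lay within 1.3-fold of those of RNU1-1 in both libraries, and they formed 5 different pairs of counts. The value of RNU1-1 is therefore shared with other rows and cannot be assigned to this gene copy alone, and it is not known whether the same reads were counted in each row.

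The U4 RNAs showed the largest decreases. RNU4-1 had 783 input and 94 bound reads and was 16.6-fold lower (interval 13.4 to 20.7). RNU4-2 had 896 input and 124 bound reads and was 14.4-fold lower (interval 11.9 to 17.5). Both intervals lie wholly above the 8.67-fold of all members summed, and they overlap each other. In shares of the library, RNU4-1 had 44.9 RPM before capture and 3.11 RPM after it, and RNU4-2 had 51.4 RPM and 4.10 RPM. No other transcript has the same counts as either RNA. RNU4-2 had 1.14 times the reads of RNU4-1 before capture (interval 1.04 to 1.26) and 1.32 times after it (1.0009 to 1.74). Summed, the U4 RNAs had 1679 input and 218 bound reads, a level 15.3-fold lower (interval 13.3 to 17.7).

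The U5 RNAs had the most reads of the list and decreases between those of U1 and U4. RNU5A-1 had 18632 input and 3994 bound reads and was 9.27-fold lower (interval 8.96 to 9.60). RNU5B-1 had 11403 input and 2301 bound reads and was 9.85-fold lower (interval 9.42 to 10.3). RNU5A-1 had 1068 RPM before capture and 132 RPM after it, and RNU5B-1 had 654 RPM and 76.2 RPM. Ranked by reads among the 119401 transcripts without a coding region, RNU5A-1 stood at rank 12 in the input and rank 300 in the bound library, and RNU5B-1 at ranks 23 and 733. RNU5A-1 had 1.63 times the reads of RNU5B-1 before capture (interval 1.60 to 1.67) and 1.74 times after it (1.65 to 1.83). No other transcript repeats the counts of either. Together they were 9.49-fold lower (interval 9.23 to 9.75), from 30035 input to 6295 bound reads.

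RNU6-1, a gene for the U6 RNA, is listed at 0 reads in both libraries. A count of 0 allows up to 3 reads, or 0.172 RPM for the input and 0.0993 RPM for the bound library, and no ratio can be given. The row shares its 0 counts with 61203 other transcripts, 31.4% of all rows being at 0 in both libraries. The treatment of reads with several matches was not tested here, and 0 in this row does not show that U6 fragments were missing from the lysates.

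**Figure D2:**
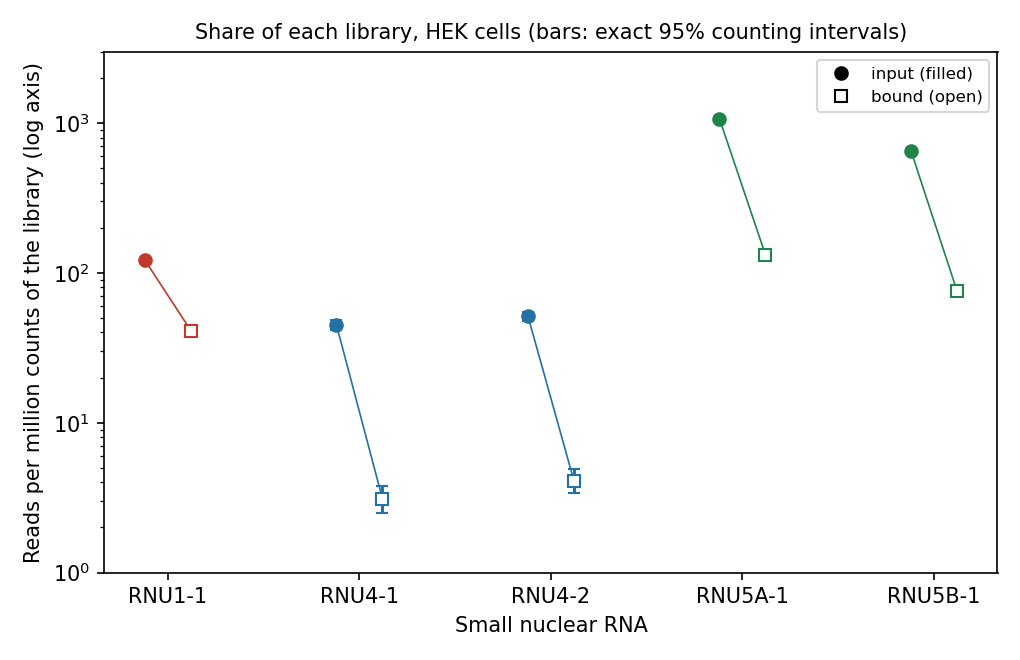
Share of the library in RPM (y axis, log axis) for each of the 5 snRNAs with reads, with filled circles for the input, open squares for the bound library and bars for exact 95% counting intervals. In each RNA the bound value is lower, from 121 to 41.1 RPM for RNU1-1 and from 1068 to 132 for RNU5A-1.

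As shares of all counts, which do not use the scale set by coding regions, the decreases were 2.95-fold for RNU1-1, 14.4-fold for RNU4-1, 12.5-fold for RNU4-2, 8.08-fold for RNU5A-1 and 8.58-fold for RNU5B-1. The 6 members summed to 1939 RPM before capture (interval 1918 to 1960) and 257 RPM after it (251 to 262). Of the counts of transcripts without a coding region, they made up 0.437% (input) and 0.0681% (bound). The files give no transcript lengths, so ranks and ratios of reads between RNAs describe reads and not levels of the RNAs.

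**Figure D3:**
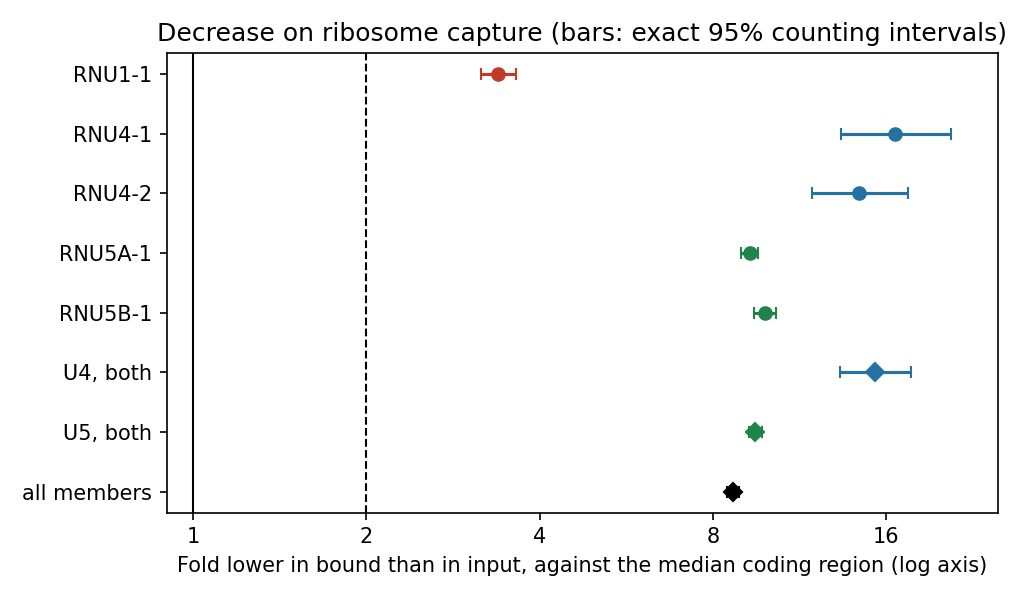
Fold by which each snRNA was lower in the bound library than in the input, relative to the median coding region (x axis, log axis), for single RNAs (circles) and summed RNAs (diamonds), with exact 95% counting intervals as bars; the solid line marks no difference and the dashed line 2-fold. The values run from 3.39-fold for RNU1-1 to 16.6-fold for RNU4-1, with the U5 RNAs at 9.27-fold and 9.85-fold.

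The U1, U4 and U5 RNAs differed from each other in their bound over input ratios beyond counting error. Dividing the ratio of one RNA by that of another cancels the scale between libraries, so these comparisons hold under any scaling. Of 15 possible pairs, 10 could be compared and 9 had an exact conditional interval that excludes 1. The ratio of RNU1-1 was 2.74 times that of RNU5A-1 (interval 2.53 to 2.96), 2.91 times that of RNU5B-1 (2.67 to 3.16), 4.24 times that of RNU4-2 (3.46 to 5.22) and 4.89 times that of RNU4-1 (3.89 to 6.19). The summed U4 RNAs had 0.620 times the ratio of the summed U5 RNAs (interval 0.534 to 0.716).

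Within a particle the gene copies lay close together. Whether reads matching both copies were counted in both rows was not tested, so these ratios may not be those of separate genes. The ratio of RNU4-1 was 0.868 times that of RNU4-2, with an interval of 0.645 to 1.16 that includes 1, so a difference between the U4 copies was not detectable at this depth. The ratio of RNU5A-1 was 1.06 times that of RNU5B-1, and its interval of 1.004 to 1.124 barely excludes 1. With no replicate of either library, it is not known whether differences of this size exceed the variation between preparations.

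**Figure D4:**
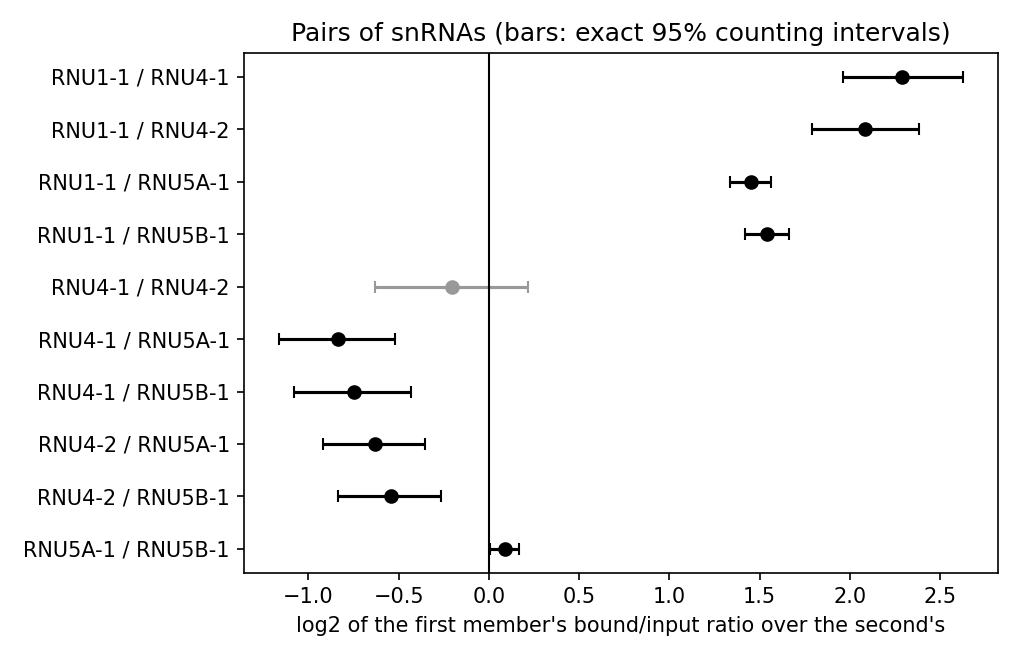
Bound over input ratio of the first snRNA divided by that of the second, as log2 (x axis), for the 10 pairs with reads, with exact 95% counting intervals as bars; grey marks the pair whose interval includes 0. The 4 pairs with RNU1-1 first lie highest, and the U4 copies and the U5 copies lie nearest to 0.

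The makeup of the snRNA reads differed between the libraries. Of the reads of the list, RNU1-1 held 6.26% before capture (interval 6.002 to 6.52) and 16.02% after it (15.2 to 16.9). The U5 RNAs held 88.8% and 81.2%, and the U4 RNAs 4.96% and 2.81% (intervals 4.73 to 5.20 and 2.45 to 3.20). These are shares of reads, not of molecules, and the share of RNU1-1 depends on how reads were assigned among rows with its counts.

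At stricter thresholds the U4 and U5 RNAs stood apart from RNU1-1. At 4-fold and at 8-fold, 4 of the 5 RNAs with reads were lower, against 0.851% and 0.582% of transcripts without a coding region and 0.106% and 0.034% of coding regions. At 16-fold 1 was lower, RNU4-1, against 0.394% and 0.0189%. Its interval of 13.4-fold to 20.7-fold spans that threshold, and its log2 ratio of -4.05 became -3.99 with TMM scaling, -3.85 with total counts and -3.91 with a prior of 5 scaled reads, each short of 16-fold. Among transcripts without a coding region, 236 of the other 22330 (1.06%) had a lower ratio than RNU1-1. The numbers were 120 for RNU5B-1 (0.537%), 121 for RNU5A-1 (0.542%), 97 for RNU4-2 (0.434%) and 84 for RNU4-1 (0.376%).

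Each snRNA was also placed among transcripts without a coding region that had similar read numbers; low ratios were more frequent among the most abundant of these. From 10000 to under 100000 summed reads, 16.5% of 115 such transcripts were at least 2-fold lower, the U5 RNAs among them. There, 13 of the other 114 lay below RNU5A-1 and 12 below RNU5B-1. From 1000 to under 10000 reads the share was 2.47% of 2991, and 55 of the other 2990 lay below RNU1-1 and 35 below RNU4-2. From 300 to under 1000 reads it was 1.36% of 6906, and 24 of the other 6905 lay below RNU4-1. Coding regions this low also occurred in the matching ranges, though rarely: 2 of 197 lay below each U5 RNA, 6 of 4395 below RNU1-1, 3 of 4395 below RNU4-2 and 0 of 9428 below RNU4-1.

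Low ratios were frequent among transcripts with nearby identifiers. The members fall in the numeric blocks ENST00000362000 to ENST00000365999 and ENST00000383000 to ENST00000384999, which hold 2636 transcripts without a coding region; the files do not say what these are. Of them 2302 (87.3%) had 0 reads in both libraries, as RNU6-1 did. Among the 62 others with at least 100 reads, 61.3% reached a 2-fold decrease, 30.6% a 4-fold, 16.1% an 8-fold and 3.23% a 16-fold one, with a median log2 ratio of -1.66. Of the 62, 6 repeat the counts of RNU1-1, and some of the others repeat each other's counts. Rows with equal counts were therefore also counted once, which left 52, a row with the counts of RNU1-1 included. Of the 52, 57.7% were at least 2-fold lower, with a median of -1.46. The log2 ratios of the 62 ran from -5.20 to 1.09, and all 5 snRNAs with reads lay within this range. Of the 62, 24 lay below RNU1-1, 9 below each U5 RNA and 2 below each U4 RNA.

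**Figure D5:**
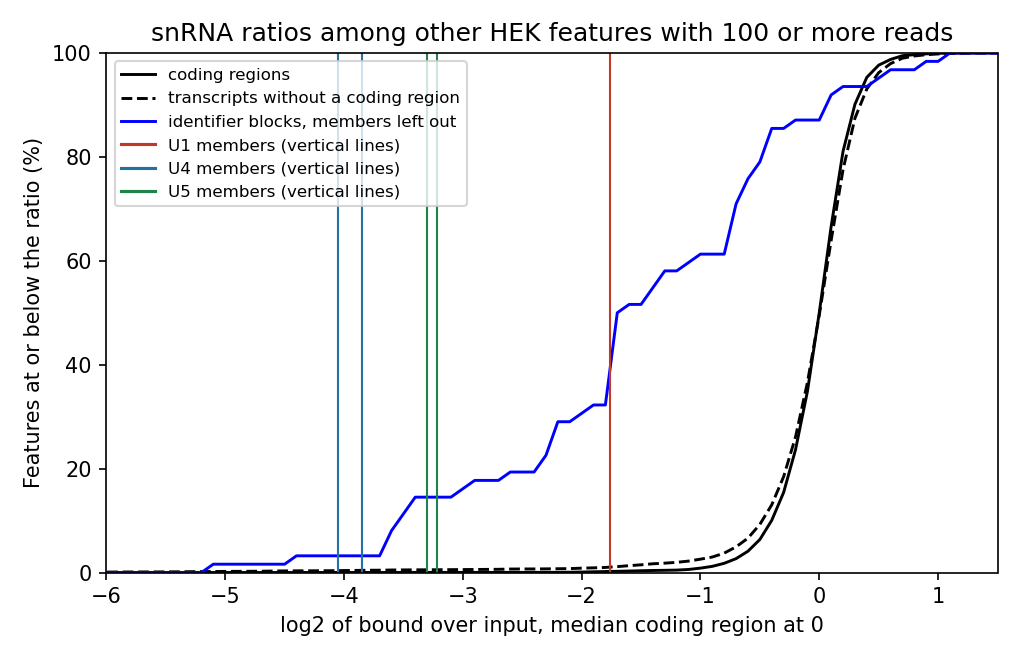
Share of features at or below a given log2 bound over input ratio (y axis, percent; x axis, log2 with the median coding region at 0) for coding regions, all transcripts without a coding region and the transcripts of the same identifier blocks, with vertical lines for the 5 snRNAs. The U4 and U5 lines stand where the first 2 curves are near 0%, and the RNU1-1 line crosses the curve of the identifier blocks in its middle, at a step that includes rows with its own counts.

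The 577 transcripts without a coding region that were at least 2-fold lower held 2332037 input reads and 423678 bound reads. The 5 snRNAs supplied 1.45% of these input reads and 1.83% of these bound reads. Both totals rest largely on a few very abundant rows. Of the 4 transcripts without a coding region that had at least 100000 summed reads, 2 were among the 577. For 1 of them the log10 of input reads plus 1 was at least 6.1.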

How the data were processed

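The authors deposited 1 table of raw read counts for each library, with a row for each transcript; the columns, per the file headers, hold the whole transcript, the coding region and the parts before and after it. The snRNAs have whole-transcript counts only. The submitters' processing notes name CASAVA 1.8, Bowtie2 2.0.6, TopHat2 2.0.7 and the build hg19 and give no role for any of them. Which tool counted the reads, on which annotation, by strand or not, and with what rule for several matches is not stated in those notes. The labels name no molecular identifiers, so amplified copies of 1 fragment are not independent molecules; intervals and floors cover counting error only and are too narrow if reads were counted in several rows.

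The members and lists were chosen with earlier results of these data known. All members are reported. Other named transcripts are the 2 whose counts were nearest to those of a member, ties being counted rather than named. The ratios printed for the members carry no prior. For other features 0.5 scaled reads were added before taking log2, and also for the members where they were placed among or counted with those features. Intervals are two-sided exact 95% intervals (Clopper-Pearson for ratios and shares, conditional odds ratio for pairs); a count of 0 was set against 3 reads. Features with at least 100 summed reads were compared, as the coding region or, where none is counted, the whole transcript. Calculations used Python 3.11.15, numpy 2.4.6, scipy 1.17.1, pandas 2.3.3 and edgeR 4.0.16 (TMM alternative only). The calls were tested on simulated counts for this comparison. Only features with at least 100 simulated summed reads were scored, so lowered features that fell under that number were left out. Of those scored, 100% of 61 lowered 4-fold and of 61 lowered 8-fold were called at the 2-fold threshold. The same threshold called 0.00205% of 48694 unchanged features, against 1.65% of the measured features. The simulation holds counting error alone, so it checks the calculation and not the spread between preparations. The planned list of other snRNAs and spliceosomal proteins was not analysed, because 0 of 194871 identifiers were found in the available name tables. Those tables and the sequence tables are for mouse, so no sequence is shown. The mouse libraries were not used here.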

Additional observations from a re-analysis of the deposited data

How the results depend on the processing

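No paired analysis was possible because there was 1 library in each group, and for the same reason no library could be left out. Another scaling shifts all ratios alike, by 0.20 (log2) for total counts, 0.057 for TMM and 0.027 for whole coding transcripts, and by 0.027 and -0.047 with minimums of 30 and 500 reads. All 5 snRNAs with reads stayed at least 2-fold lower under total counts, TMM and whole-transcript scaling, and at a 1.5-fold threshold; at 4-fold 4 did. The summed log2 ratio of -3.12 became -2.92 with total counts, -3.06 with TMM and -3.16 with a minimum of 500 reads. It was -3.01 without the member with the most reads, RNU5A-1. Leaving out RNU1-1 gave -3.28 and splitting its reads over the 7 rows with its counts gave -3.25; both were chosen after seeing the data, as were leaving RNU5A-1 out of the shares and counting rows with the same counts once. The members' share of 1939 RPM before capture became 4374 against counts without a coding region, 4433 against coding-region counts, 2207 without the 10 most abundant transcripts and 871 without RNU5A-1. The bound share of 257 RPM became 681, 503, 263 and 125 in the same order. The share of transcripts without a coding region at least 2-fold lower ran from 1.98% (total counts) to 3.40% (rows with the same counts counted once). Depth limits the U4 RNAs most: their bound counts of 94 and 124 give the widest intervals.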

Other observations

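Among transcripts without a coding region that are not on the list, those with counts nearest to a single snRNA copy were sought as a description over these 2 libraries. Nearness was the distance in log2 reads, with a prior of 0.5. ENST00000362477.1 lay nearest to RNU5B-1 (distance 0.16), with 12509 input and 2159 bound reads, and was 11.5-fold lower in the bound library. ENST00000533680.1 lay nearest to RNU4-2 (distance 0.17), with 969 and 135 reads, and was 14.3-fold lower. The files do not name either RNA. RNU5A-1 had no such close neighbour, its nearest row being at a distance of 0.62, and RNU1-1 had 6 rows at distance 0.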
